A study of Drosophila melanogaster with 36 samples.

Results

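Transcript levels were compared between red-eyed and white-eyed females of *D. melanogaster*, over 18 of the 36 arrays of the series. The red-eyed females were those of the strains REC, INV1 and INV2, and the white-eyed females those of SIM1, REV1 and REV2, with 3 arrays (A, B and C) per strain, hence 9 per eye colour. Each array measured total RNA from 50 whole virgin females aged 5 to 7 days, kept at room temperature on a cornmeal medium. The arrays were assigned to strains by their labels, and the strains to eye colours by the study's account of how they were built. The question was which differences held between every red-eyed and every white-eyed strain.

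All 6 strains have the genotype w1118 in the study's list, so that their own *white* gene is mutant. They descend from the same pair of inserted elements on chromosome arm 2R, P{RS3}CB-0236-3 upstream and P{RS5}5-HA-1995 within the block that the study disrupted. In each original element, target sites for the FLP recombinase flank an exon of a mini-white reporter. REC carries both elements in cis, before any induced recombination, with the chromosome in the standard order. INV1 and INV2 carry an engineered inversion of the segment between the elements, which splits this conserved block of genes. SIM1 went through the same heat shocks but kept the standard order, and in REV1 and REV2 the inverted segment was turned back. Eye colour therefore does not follow the inversion, since REC shares its eye colour with INV1 and INV2 and its gene order with SIM1, REV1 and REV2. It does follow the state of the reporter, and colour and reporter cannot be told apart with these strains. Each strain is a single line, so that a difference between colours rests on 3 lines against 3, and the arrays of a strain do not sample other lines.

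The *white* gene encodes a subunit of an ABC transporter that brings the precursors of the brown and red pigments into pigment cells of the eye, and mini-white is a shortened copy of it used to mark transgenes. In the elements used here the reporter is broken or rebuilt when the recombinase acts on the target sites, which changes the colour of the eye. The white gene itself is also active outside the eye, in the Malpighian tubules and the brain. The arrays used whole flies, in which fewer cells of a type and less RNA per cell cannot be told apart.

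The values were fluorescence intensities for 16637 transcripts listed by FlyBase transcript identifier, and they are given below as log2 intensity. Their median was 10.4 on every female array, and at no rank from dimmest to brightest did 2 female arrays differ by more than 0.976%. Within a strain, the SD between arrays had a median of 0.11 on the log2 scale. The gene table used held 44 of the identifiers (0.264%). None of these was on the gene lists drawn up for pigment transport and synthesis, light detection, odorant binding, yolk and eggshell, immune defence or heat shock. No count can therefore be given for those lists, and neither *white* nor the markers of sex could be looked up. Most transcripts are accordingly named by identifier, with no role. Levels were compared between strains for one transcript at a time and not between transcripts.

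The mean of the red-eyed strains differed from the mean of the white-eyed strains in 966 of 16637 transcripts (5.81%), of which 574 (3.45%) were higher and 392 (2.36%) lower in red-eyed females. A transcript was called when its Benjamini-Hochberg adjusted p from limma, over all transcripts, was under 0.01. At an unadjusted p under 0.05, 4621 passed (27.8%). Most of the called differences were small. The median was 0.33 on the log2 scale among the higher transcripts (0.19 to 0.74 from the 5th to the 95th percentile) and -0.26 among the lower (-0.45 to -0.18), and 901 of the 966 (93.3%) were under 1.5-fold. Over all transcripts the median size was 0.064, and the median standard error of the difference was 0.051. Calls were spread unevenly over brightness, with 33 calls among the 4159 dimmest transcripts (0.793%), 422 and 424 in the next bins of 4159 (10.1% and 10.2%) and 87 among the 4160 brightest (2.09%). The median SD between arrays was 0.0828, 0.135, 0.125 and 0.0988 in the same bins.

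These calls were tested against the scatter between arrays of a strain. Differences between strains of one colour were not part of that error. With the 3 strain means of each colour as the samples, limma called 3 transcripts, and with the strain as a random block it called 39 (30 higher, 9 lower in red-eyed females). The one-way comparison of the pooled arrays that the methods name called 143. The count also depended on single strains. Without REC it was 504, without INV1 195, without REV1 196 and without SIM1 1652, and without INV2 it was 1451. Of the 966 transcripts, 106 (11%) were called in the same direction without each of the 6 strains in turn, 86 of them higher and 20 lower in red-eyed females. Without REC, 446 of the 966 (46.2%) were still called, without INV1 190 (19.7%), without REV1 194 (20.1%), without REV2 566 (58.6%), and without INV2 or SIM1 855 (88.5%) and 846 (87.6%). Single arrays mattered as well. Without replicate A or B of REC the count was 567 or 576, without replicate C of INV1 575, without replicate B or C of REV1 547 or 592, and without replicate A of REV2 640.

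Some strains of one eye colour lay farther from each other than from a strain of the other colour. Of the sum of squares over all transcripts, 16.4% lay between the eye colours (1 degree of freedom), 41.2% between strains of one colour (4 degrees of freedom) and 42.4% between arrays of one strain (12 degrees of freedom), which is 16.4%, 10.3% and 3.53% per degree of freedom. The nearest pair of strain means was that of REV1 and REV2, with a root mean square difference of 0.133 on the log2 scale. REC lay nearest to white-eyed SIM1 (0.158), and INV2 nearest to white-eyed REV2 (0.158), whereas INV1 lay nearest to REC (0.162). The most distant pairs were REC and REV2 (0.264), and, within the red-eyed strains, REC and INV2 (0.251). When arrays were left out one at a time, SIM1 stayed nearest to REC in 15 of 18 cases, REV2 to INV2 in 17 and REC to INV1 in 17. The first principal component, with 32.6% of the variance, and the second, with 19.6%, both had overlapping red-eyed and white-eyed arrays. The sample titles number the females in the order REC, SIM1, INV1, REV1, INV2, REV2. On the first component REC lay between -19.95 and -12.54 and REV2 between 5.71 and 20.66. REC and SIM1 are neighbours in this order, as are INV2 and REV2. The other neighbours are SIM1 and INV1 (0.187), INV1 and REV1 (0.223), and REV1 and INV2 (0.195). REV1 and REV2, the nearest pair, are not neighbours, and neither are REC and INV1. Strain and sample order cannot be told apart here, and a part of the order in these distances was not tested.

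**Figure D1:**
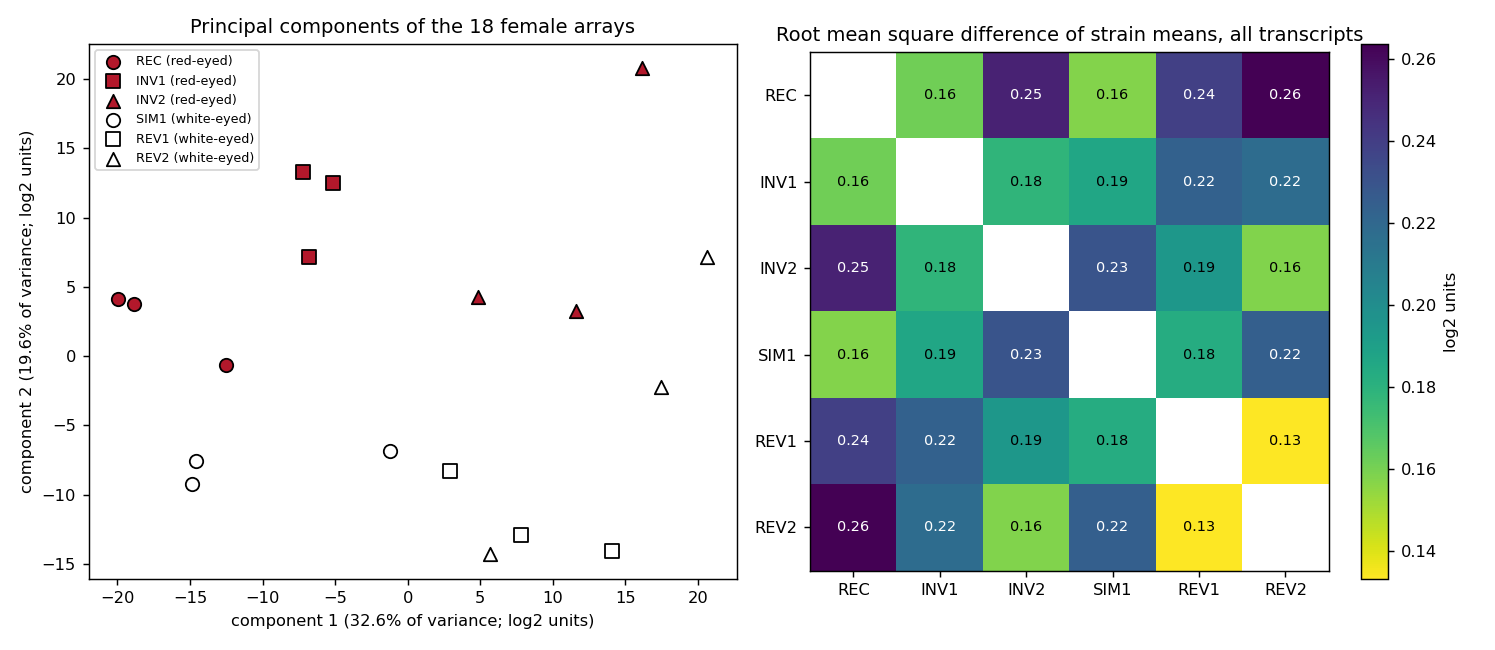
Left, the 18 female arrays on the first 2 principal components of the log2 intensities (axes in log2 units), with red-eyed strains filled and white-eyed strains open. Right, the root mean square difference between strain means over all transcripts (log2 units). REC lies closer to white-eyed SIM1, and INV2 closer to white-eyed REV2, than REC and INV2 lie to each other.

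The strains of each colour were then tested among themselves. By the moderated F-test of limma, 400 transcripts (2.4%) differed among the red-eyed strains and 271 (1.63%) among the white-eyed strains. Of the 966 transcripts called between the colours, 82 differed among the red-eyed strains, 74 among the white-eyed strains and 129 (13.4%) among the strains of at least one colour, where the share among all transcripts was 3.4%. The tests between and within colours share the residual variance of each transcript, so that their calls are not independent. The counts of 400 and 271 rested on few arrays. The count among red-eyed strains was between 103 and 605 when arrays were left out one at a time, and that among white-eyed strains between 38 and 612, so that neither count is firm. Among red-eyed strains it was 116 without REC replicate A, 103 without B and 183 without C, 242 without C of INV1, 211, 233 and 225 without A, B and C of INV2, and 605 without B of REV2. Among white-eyed strains it was 38 without SIM1 replicate A, 64 without B and 612 without C, 115, 602 and 103 without A, B and C of REV2, 164 and 176 without B and C of REV1, 174 without A of REC and 154 without C of INV1.

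Each red-eyed strain was next set against each white-eyed strain, which gives 9 pairs. The p-values were adjusted within each pair, so that a pair with few calls needed a smaller unadjusted p for a call. The number of transcripts called in a pair differed widely. REC minus SIM1 had 46 calls (0.276%, 28 higher and 18 lower in REC) and INV2 minus REV2 had 67 (0.403%, 44 higher and 23 lower in INV2). REC minus REV2, at the other end, had 1314 calls (7.9%, 802 higher and 512 lower in REC), and INV1 minus REV1 had 881 (5.3%, 457 higher and 424 lower in INV1). The pairs with the fewest calls were thus those whose strains lay near each other across the colours. In between were REC minus REV1 with 652 (3.92%), INV1 minus REV2 with 500 (3.01%), INV2 minus SIM1 with 464 (2.79%), INV1 minus SIM1 with 194 (1.17%) and INV2 minus REV1 with 137 (0.823%). In INV2 minus SIM1 the lower transcripts prevailed (209 higher, 255 lower in INV2), and in the other 8 pairs the higher. When arrays were left out one at a time, the counts lay between 20 and 45 for REC minus SIM1, between 62 and 272 for INV1 minus SIM1, between 85 and 831 for INV2 minus SIM1, between 180 and 938 for REC minus REV1 and between 131 and 1154 for INV1 minus REV1. They lay between 45 and 195 for INV2 minus REV1, between 489 and 1806 for REC minus REV2, between 153 and 682 for INV1 minus REV2 and between 33 and 82 for INV2 minus REV2. The 9 pairs share arrays, so that their counts are not independent of each other.

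**Figure D2:**
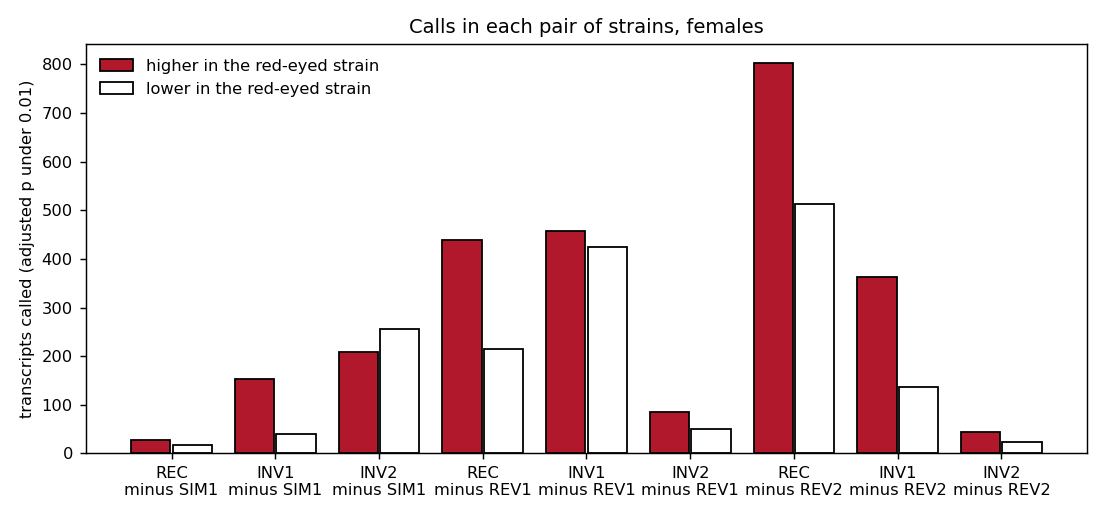
Number of transcripts called (limma adjusted p under 0.01) in each of the 9 pairs of a red-eyed strain with a white-eyed strain in females. Filled bars count transcripts higher in the red-eyed strain and open bars those lower. The counts run from 46 in REC minus SIM1 to 1314 in REC minus REV2.

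Few of the 966 differences were called pair by pair. All 9 pair differences had one sign in 582 of the 966 (60.2%) and in 2512 of all transcripts (15.1%). The 966 were selected on the mean of these same differences, so that their higher share follows in part from the selection. None of the 9 pairs was called in 155 transcripts, and 907 (93.9%) had at most 4 pairs called. At least 5 pairs were called in 59 transcripts, 8 pairs in 4, and all 9 pairs in 5 transcripts (0.0301% of all tested). The values of the 9 red-eyed and 9 white-eyed arrays did not overlap in 81 transcripts (0.487%), of which 63 (0.379%) were higher and 18 (0.108%) lower in red-eyed females. All 81 were among the 966, which rest on the same arrays, so that this is no separate support. The gap between the colours was narrow in most of the 81, with a median of 0.044 on the log2 scale. It exceeded 0.25 in 4 transcripts and 1 in 3. Without replicate C of REV2, 166 transcripts did not overlap.

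The 5 transcripts called in all 9 pairs were FBtr0070490 and FBtr0086477, which were higher in red-eyed females (0.012% of transcripts), and FBtr0076623, FBtr0086478 and FBtr0086479, which were lower (0.018%). They are named here because of this count, after their values were seen, and the files and tables used pair none of them with a gene. Consecutive identifiers are among them, from FBtr0086477 to FBtr0086479.

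FBtr0086478 had the largest difference of all transcripts between the colours. Its log2 intensity was 7.90, 7.96 and 8.10 in REC, 8.39, 8.41 and 8.36 in INV1, and 8.28, 8.43 and 8.41 in INV2, against 11.69, 11.81 and 11.51 in SIM1, 11.49, 11.24 and 11.03 in REV1, and 10.90, 11.37 and 10.68 in REV2 (replicates A, B and C). The brightest red-eyed array thus lay 2.25 below the dimmest white-eyed array. Red minus white was -3.05 (standard error 0.0813, 95% interval -3.23 to -2.88), or 8.31-fold lower in red-eyed females (limma adjusted p = 1.88e-13). On the red-eyed arrays between 14.5% and 27.9% of all transcripts were as dim or dimmer. The deposited values hold no measure of the background. The fold is therefore that of the deposited intensities, and a lower bound where the red-eyed level is at background. The pair differences ran from -2.60 in INV1 minus REV2 to -3.69 in REC minus SIM1. Within the colours, the F-test gave adjusted p = 0.0979 among red-eyed and 0.0196 among white-eyed strains.

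FBtr0086479 had a similar order of strains. On the log2 scale it had intensities of 7.62, 7.59 and 7.76 in REC, 8.11, 8.10 and 8.11 in INV1, and 8.18, 8.09 and 8.18 in INV2, against 10.98, 11.08 and 10.98 in SIM1, 10.82, 10.72 and 10.55 in REV1, and 10.39, 10.62 and 10.54 in REV2. All red-eyed arrays lay at least 2.20 below all white-eyed arrays. Red minus white was -2.77 (standard error 0.043, 95% interval -2.86 to -2.68), or 6.83-fold lower in red-eyed females (limma adjusted p = 9.56e-17). The same limit on the fold holds here, since on the red-eyed arrays between 4.32% and 23% of all transcripts were as dim or dimmer, and FBtr0084138, a dim transcript with red minus white of 0.00, had 7.41 to 7.69 on the same arrays. REC was the lowest of the red-eyed strains and SIM1 the highest of the white-eyed, so that the pair differences ran from -2.37 in INV2 minus REV2 to -3.36 in REC minus SIM1. Strains of one colour differed too, among the red-eyed (F-test adjusted p = 0.00137) and among the white-eyed (0.00348).

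FBtr0076623 was lower in red-eyed females by a smaller margin. Log2 intensities were 8.78, 8.66 and 8.57 in REC, 8.78, 8.78 and 8.74 in INV1, and 9.03, 9.02 and 8.97 in INV2, against 9.27, 9.48 and 9.36 in SIM1, 9.67, 9.69 and 9.68 in REV1, and 9.83, 9.70 and 9.99 in REV2. INV2 and SIM1 came closest, and the arrays of the colours stayed apart by 0.24. Red minus white was -0.82 (standard error 0.0429, 95% interval -0.91 to -0.73), or 1.76-fold lower in red-eyed females (limma adjusted p = 5.22e-09). The pair differences ran from -0.37 in INV2 minus SIM1 (limma adjusted p = 0.0071) to -1.17 in REC minus REV2. This transcript was the least secure of the 5. It lost the call in at least 1 of its pairs under 17 of 32 other settings, among them the omission of any one INV2 array or any one SIM1 array, whereas the other 4 kept every pair under all 32. With strain means as samples its adjusted p was 0.3.

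FBtr0070490 was the transcript with the largest increase. The arrays had log2 intensities of 11.62, 11.55 and 11.52 in REC, 12.09, 12.03 and 12.07 in INV1, and 12.001, 11.95 and 11.77 in INV2, against 9.32, 9.48 and 9.42 in SIM1, 9.69, 9.73 and 9.67 in REV1, and 9.99, 9.76 and 9.92 in REV2. The dimmest red-eyed array lay 1.52 above the brightest white-eyed array. Red minus white was 2.18 (standard error 0.0417, 95% interval 2.09 to 2.27), or 4.53-fold higher in red-eyed females (limma adjusted p = 1.42e-15). Here REC was the lowest of the red-eyed strains and SIM1 the lowest of the white-eyed, and both colours differed within (F-test adjusted p = 0.00179 among red-eyed and 0.00363 among white-eyed strains). The pair differences ran from 1.67 in REC minus REV2 to 2.66 in INV1 minus SIM1. With strain means as samples the adjusted p was 0.0214, so that it was not called.

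FBtr0086477 was the most even of the 5. The log2 values were 11.20, 11.06 and 11.13 in REC, 11.09, 10.98 and 11.04 in INV1, and 10.76, 11.30 and 11.19 in INV2, against 9.96, 10.07 and 9.92 in SIM1, 10.04, 9.89 and 10.03 in REV1, and 9.99, 10.20 and 9.83 in REV2. The gap between the colours was 0.56, set by replicate A of INV2. Red minus white was 1.09 (standard error 0.0657, 95% interval 0.95 to 1.23), or 2.13-fold higher in red-eyed females (limma adjusted p = 2.41e-08). The 9 pair differences lay between 1.04 and 1.15, and the F-tests within the colours gave adjusted p = 0.828 among red-eyed and 0.989 among white-eyed strains. With strain means as samples, the 3 transcripts called were this one (adjusted p = 0.00215), FBtr0086478 (0.00837) and FBtr0086479 (0.00837).

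**Figure D3:**
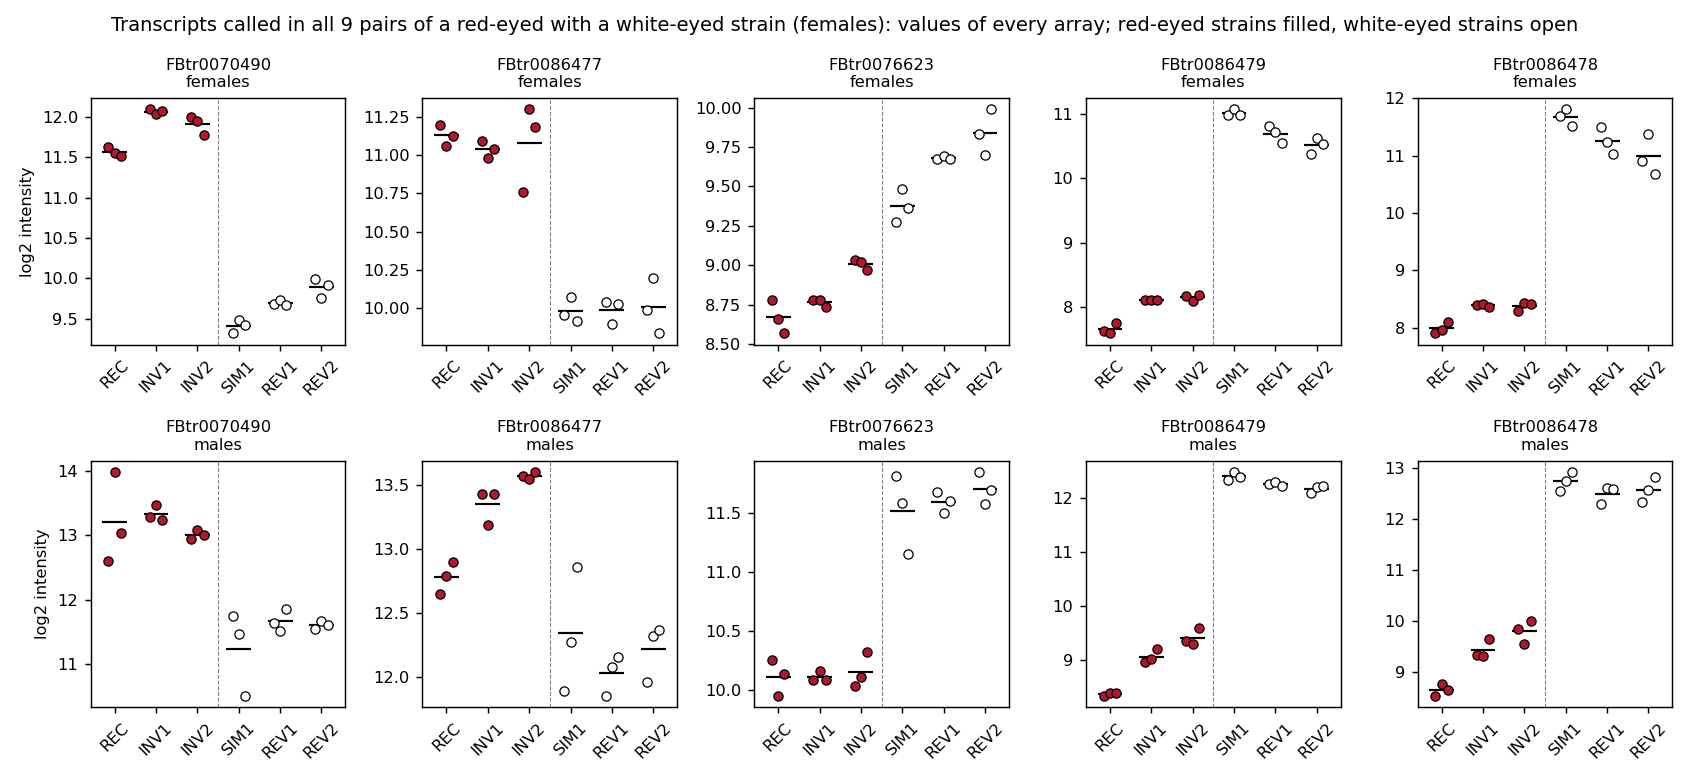
Log2 intensity of the 5 transcripts called in all 9 pairs in females, with females above and males below, each point an array and each line a strain mean (n = 3). Red-eyed strains (filled) are left of the dashed line and white-eyed strains (open) right of it. In females the colours do not overlap in any of the 5, with gaps from 0.24 in FBtr0076623 to 2.25 in FBtr0086478.

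A further 4 transcripts missed one pair, and they too are named because of their count. FBtr0079437, FBtr0079517 and FBtr0085778 were higher in red-eyed females, by 0.71, 0.84 and 0.89 (standard errors 0.0649, 0.0502 and 0.0869, limma adjusted p = 6.61e-06, 2.41e-08 and 1.23e-05). Each missed REC minus SIM1, the pair with the fewest calls (limma adjusted p = 0.296, 0.217 and 0.301). Their REC minus SIM1 differences were 0.33, 0.29 and 0.44, and a missed call does not mean no difference. In FBtr0079517, for example, the red-eyed arrays had 9.46, 9.55 and 9.53 in REC, 9.96, 10.04 and 9.999 in INV1 and 9.99, 9.80 and 9.74 in INV2, and the white-eyed arrays 9.22, 9.24 and 9.21 in SIM1, 8.86, 9.03 and 8.64 in REV1 and 8.73, 8.69 and 8.90 in REV2. REC was nearest to the white-eyed strains and SIM1 nearest to the red-eyed ones, without overlap.

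FBtr0076262 was lower in red-eyed females, by -0.72 (standard error 0.0434, 95% interval -0.82 to -0.63, limma adjusted p = 2.41e-08). It missed INV2 minus REV2 (limma adjusted p = 0.021). Its log2 intensity was 11.58, 11.60 and 11.54 in REC, 11.24, 11.02 and 11.14 in INV1, and 11.82, 11.65 and 11.71 in INV2, against 12.22, 12.21 and 12.46 in SIM1, 12.21, 12.22 and 12.19 in REV1, and 12.12, 12.02 and 12.16 in REV2. The white-eyed strains were close to each other, whereas INV1 lay below the other red-eyed strains (F-test adjusted p = 0.000708). Of the 14 transcripts with 7 or 8 pairs called, 6 missed REC minus SIM1, 5 missed INV2 minus SIM1 and 5 missed INV2 minus REV2, and each other pair was missed by 1 or 2.

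A large mean difference did not by itself mean a call in every pair. Of the 966 transcripts, 8 differed by over 2-fold (6 higher and 2 lower in red-eyed females), and 4 of the 8 were called in all 9 pairs. The other 4 lost the call without at least 1 strain. FBtr0082287 was one of them, with red minus white of 1.08 (standard error 0.0447, limma adjusted p = 1.53e-10). Its log2 intensity was 11.68, 11.68 and 11.74 in REC but 8.78, 8.96 and 8.90 in INV1 and 8.76, 8.77 and 8.64 in INV2, against 8.33, 8.32 and 8.57 in SIM1, 8.91, 8.91 and 8.73 in REV1, and 8.86, 8.71 and 8.84 in REV2. The difference between the colours rested on REC, since INV1 and INV2 overlapped with the white-eyed strains. Without REC it was 0.12. In FBtr0082482, FBtr0082638 and FBtr0082679 no pair was called, but every red-eyed strain mean lay above every white-eyed one. The lowest red-eyed means (INV2) were 9.96, 10.19 and 9.90, and the highest white-eyed means (REV2) 9.65, 9.72 and 9.47. Single arrays of the colours overlapped in each.

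**Figure D4:**
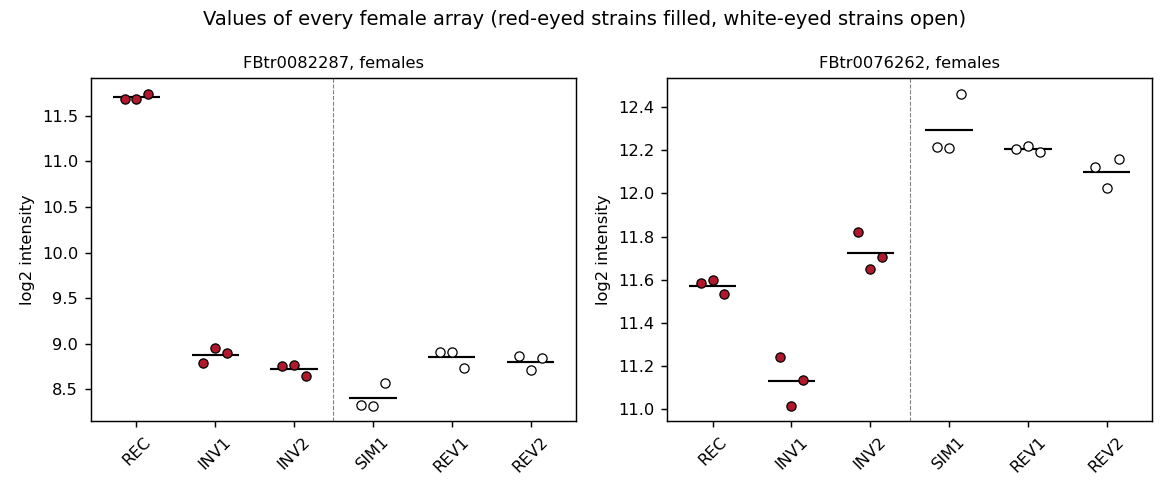
Log2 intensity of 2 transcripts on every female array, each point an array and each line a strain mean (n = 3), red-eyed strains filled and white-eyed strains open. In FBtr0082287 REC alone stands apart (11.68 to 11.74), whereas in FBtr0076262 the 9 red-eyed arrays lie below the 9 white-eyed arrays.

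Of the transcripts with a gene name, 16 identifiers were paired with 1 gene. Of the 16, 1 was called, where 5.81% of all transcripts were, so that the count is near the background. Some of the 16 pairings name only 1 reading frame of a transcript, which may also hold another gene. Their differences lay between -0.08 and 0.39 (median -0.0007), with 8 higher in red-eyed females. The called one was FBtr0080133, paired with *Fatp1*, a fatty acid transport protein. This pairing is tagged as a reading frame of the transcript (uORF), so that the gene measured is not certain. Its log2 intensity was 12.11, 12.08 and 12.01 in REC, 11.90, 11.64 and 11.95 in INV1, and 11.46, 11.62 and 11.54 in INV2, against 11.89, 11.74 and 11.47 in SIM1, 11.39, 11.22 and 11.21 in REV1, and 11.15, 11.38 and 11.29 in REV2. Red minus white was 0.39 (standard error 0.0592, 95% interval 0.27 to 0.52, limma adjusted p = 0.000604), 4 of the 9 pairs were called, and the SIM1 arrays overlapped with the red-eyed arrays. The call was lost with strain means as samples (adjusted p = 0.466), with the strain as a random block (0.131), with the one-way comparison (0.0627), without REC (0.03) and without REV1 (0.0176).

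Among the genes named without a call were *SuUR*, which acts in the late replication of heterochromatin, *LanA*, a laminin subunit of basement membranes, *alpha-Spec*, a spectrin of the membrane skeleton, *HDAC3*, a histone deacetylase, and *kis*, a chromatin remodeller. A further 28 identifiers belonged to several genes each, and 2 of them were called, again near the 5.81% of all transcripts. FBtr0084782, shared by *Mocs2A* and *Mocs2B*, the subunits of molybdopterin synthase, was lower in red-eyed females by -0.25 (standard error 0.0503, limma adjusted p = 0.00357). FBtr0081102, shared by *CG17325* and *CG42305*, was higher by 0.69 (standard error 0.128, limma adjusted p = 0.0025). Both had 2 of the 9 pairs called and overlapping colours, and the arrays cannot tell which gene of such an identifier was measured. Neither was called with strain means as samples, with the strain as a random block, with the one-way comparison, without INV1 or without REV1. FBtr0084782 also lost the call without REC (adjusted p = 0.0205), without replicate B of REC (0.0101) and without replicate B of REV1 (0.0103).

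The same comparison was made over the 18 male arrays of the same strains, which the female calls did not use. It called 11 transcripts (0.0661%), 4 higher (0.024%) and 7 lower (0.0421%) in red-eyed males, and 1130 (6.79%) passed an unadjusted p under 0.05. All 11 were called in females with the same sign, which is 100% of the male calls and 1.14% of the female calls. Arrays of a strain had a median SD of 0.109 in females and 0.206 in males. In males, replicates A and B of INV1, B of REC and C of SIM1 deviated from their strain means alike, with correlations of 0.358 to 0.825 between arrays of different strains. Without these 4 arrays, 22 transcripts (0.132%) were called in males, of which 18 (81.8%) were called in females, all 18 with the same sign. Leaving out replicate C of SIM1 alone also gave 22 male calls.

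Of the 966 transcripts called in females, 749 (77.5%) had the same sign in males, against 62.6% of all transcripts, and the shares were 81.3% and 61.1% without the 4 male arrays. The sexes share lines, so that these shares describe 6 lines measured in both sexes.

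**Figure D5:**
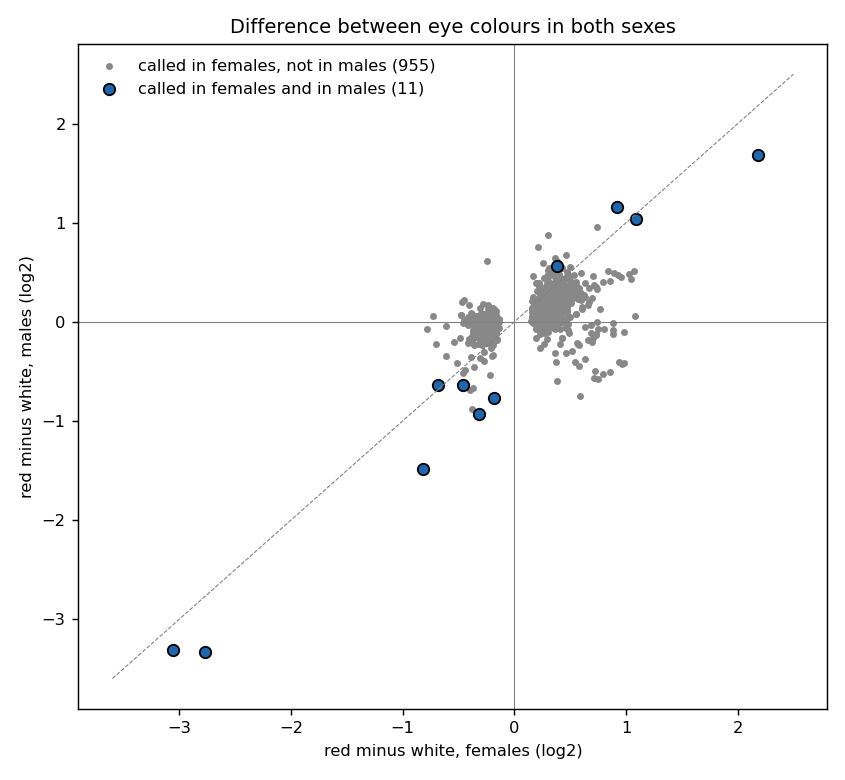
Red minus white difference in females (horizontal) and in males (vertical), log2 scale, for the 966 transcripts called in females, with those called in males as well as large points and the line of equality dashed. The 11 transcripts called in both sexes have the same sign in both.

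The 5 transcripts called in all 9 female pairs were all called in males. FBtr0086478, FBtr0086479 and FBtr0076623 were called in all 9 pairs in males too, where they were the only such transcripts (0.018%), with red minus white of -3.32 (standard error 0.0921, limma adjusted p = 2.44e-12), -3.33 (0.056, 2.29e-15) and -1.48 (0.084, 7.34e-08). They remained 3 without the 4 male arrays. FBtr0086477 had male red minus white of 1.04 (standard error 0.108, limma adjusted p = 0.000189) with 3 male pairs called. Its red-eyed male arrays ran from 12.65 to 13.60 and its white-eyed male arrays from 11.85 to 12.85, so that they overlapped. FBtr0070490 had 1.69 (standard error 0.174, limma adjusted p = 0.000189), with red-eyed male arrays from 12.61 to 13.99, white-eyed male arrays from 10.49 to 11.85, and 1 male pair called.

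Whether the difference between the colours itself differed between the sexes was tested over all 36 arrays. It did in 14 transcripts (0.0841%), while 1270 passed an unadjusted p under 0.05. Of the 14, 13 were called without the 4 male arrays as well, where the count was 33 (0.198%). It was 8 without replicate A of REV2 females, 9 without replicate A of REC males or of REV2 males, and 27 without replicate C of SIM1 males. Called in females and not in males were 10 of the 14, 6 of them higher and 4 lower in red-eyed females, with sizes between 0.45 and 1.08 in females and at most 0.41 in males, where 8 had the opposite sign. FBtr0076262 was among these 10, with -0.72 in females and 0.06 in males (females minus males -0.78, limma adjusted p = 1.42e-07). In males its red-eyed arrays ran from 11.53 to 11.86 and its white-eyed arrays from 11.41 to 11.87. FBtr0082287 had the smallest adjusted p of the 14, with a difference between the sexes of 1.02 (limma adjusted p = 2.03e-10), which rested on the REC females.

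Of the remaining 4 of the 14, 3 were called in both sexes and 1 in neither. FBtr0086479 and FBtr0076623 had larger measured decreases in males than in females, by 0.56 (limma adjusted p = 3.49e-05) and 0.66 (0.00035) on the log2 scale. For FBtr0086479 the red-eyed arrays were dim in both sexes (192 to 291 in intensity in females, 323 to 773 in males). Male arrays were brighter as a whole, with a median log2 intensity of 10.95 against 10.39. On the red-eyed arrays 4.32% to 23% of transcripts were as dim or dimmer in females, and 8.1% to 25.5% in males. Both decreases are bounded by this dimness, and its part in the difference between the sexes was not tested. FBtr0087922 was lower in red-eyed flies of both sexes, by -0.18 in females (limma adjusted p = 0.00205) and -0.77 in males (0.000604), and the sexes differed by 0.59 (0.00257). For FBtr0070490 the difference between the sexes was 0.49, with a limma adjusted p of 0.465 over all 36 arrays and 2.21e-05 without the 4 male arrays. For FBtr0086477 it was 0.06 (limma adjusted p = 0.958) and for FBtr0086478 0.26 (0.649).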

How the data were processed

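RNA of 50 virgin flies per sample (TRIzol, RNeasy) was labelled with Cy3 and hybridized in one colour to NimbleGen arrays based on annotation release 5.7. By the methods, the authors log-transformed the probe signals, took one median for each transcript and scale-normalized the arrays, and a background correction is not given in the sources used here. The deposited values are linear intensity values for 16637 transcripts on 36 arrays, with 0 missing. They were converted to log2 without further normalization. The female arrays differed by at most 0.976% at every rank, as quantile normalization would leave them, although the methods name scaling. Each sex was fitted with limma 3.58.1 in R 4.3.3 (lmFit, eBayes), one mean per strain, and calls were made at a p under 0.01 after Benjamini-Hochberg adjustment. Contrasts were the mean of REC, INV1 and INV2 minus that of SIM1, REV1 and REV2, the 9 strain pairs, F-tests within each colour and the interaction with sex. The script was tested on simulated data.

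The comparison, the transcripts and the gene lists were chosen with earlier results of these data known. Named were the transcripts called in all 9 pairs (ranked by the smallest pair difference, at most 15 per direction), those with genes, and, chosen after their values were seen, those with 8 pairs and the smallest adjusted p of the sex difference. Gene names came from a table of assembly Release 6 plus ISO1 MT. The 3 samples of a strain and sex come from 3 crosses by the methods, and the labels do not state which letter is which cross. The deposited values hold no counts and no control probes, and the number of arrays limits the precision. Alternatives were other normalizations, a filter on the dimmest 25%, a trended robust fit, array weights, the replicate block, an adjusted p under 0.05, strain means, a random strain block, the methods' one-way comparison, and leaving out each strain and each array. Leaving out 3 female arrays of low weight and 4 male arrays that deviated alike was added after seeing the data.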

Additional observations from a re-analysis of the deposited data

Results flagged for a closer look

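In FBtr0076262, replicate C of SIM1 stood above the other 8 white-eyed female arrays, with a gap of 0.552 of the group's range. In FBtr0076203 (*SuUR*), replicate A of INV2 stood apart from the other red-eyed female arrays by 0.51 of the range, and in FBtr0082871 (*rdx*) replicate C of INV2 by 0.539. These are 3 of 58 groups examined, and chance flags about 1 in 20 groups. The red minus white difference differed between the sexes, females minus males and tested as an interaction, in 14 transcripts. For those named in the text the differences were 0.662 in FBtr0076623, 0.558 in FBtr0086479, -0.783 in FBtr0076262, 1.02 in FBtr0082287 and 0.591 in FBtr0087922. The red-eyed arrays of FBtr0086479 were dim in both sexes, which bounds both decreases.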

How the results depend on the processing

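Scale and quantile normalization changed the counts little. The female arrays already had nearly equal sorted values, so that these settings could hardly move the female counts and do not test them. The filter on dim transcripts and the trended robust fit kept all counts within 1.5 times. Array weights gave 1476 calls between the colours in females, 1893 among red-eyed and 1166 among white-eyed strains, 2092 in males with 6 in all 9 pairs, and 438 for the difference between the sexes, and the weights stopped before convergence in 2 fits. At an adjusted p under 0.05 the counts were 2307 in females with 9 in all 9 pairs, 1681 among red-eyed and 1190 among white-eyed strains, 30 in males and 39 for the sexes. With strain means as samples 3 were called in females and 1 in males, with a random strain block 39 and 5, and with the one-way comparison 143 and 7.

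Without REC the female count was 504, 204 transcripts did not overlap and 4 differed between the sexes. Without INV1 the female count was 195 and that of the sexes 9. Without INV2 the female count was 1451, with 9 in all remaining pairs and 301 not overlapping. Without SIM1 it was 1652, with 13 in all remaining pairs, 374 not overlapping, 25 called in males and 49 for the sexes. Without REV1 it was 196, with 5 in males. Without REV2, 10 were called in all remaining pairs, 295 did not overlap and 7 were called in males. These settings have fewer pairs to pass. Without the 3 female arrays of lowest weight (INV2 A, SIM1 C and REV2 B) 610 were called, and without the 4 male arrays 22 in males and 33 for the sexes.

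With each array left out, the female count ran from 547 (without REV1 B) to 1218 (without REV2 C), those in all 9 pairs from 4 to 5, those not overlapping from 81 to 166, the male count from 9 to 22 (without SIM1 C) with 3 in all 9 pairs throughout, the sexes from 8 (without REV2 A of the females) to 27 (without SIM1 C of the males), and the counts among red-eyed and white-eyed strains from 103 to 605 and from 38 to 612. The cause of these moves was not tested.

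The replicate letters share only a letter. Deviations of same-letter arrays correlated between -0.322 and 0.533 (median -0.0171), and 7 of 18 female arrays matched their own letter best. With the replicate block, 934 transcripts were called in females (575 higher, 359 lower), 4 in all 9 pairs, 369 among red-eyed and 257 among white-eyed strains, 9 in males and 13 for the sexes. FBtr0086477, FBtr0086478 and FBtr0086479 were past the threshold under 35 of 35 settings. FBtr0070490, FBtr0076623, FBtr0076262, FBtr0079437, FBtr0079517 and FBtr0085778 were past it under 34, the exception being strain means as samples. That is the only setting in which each line counts once. There the limma adjusted p was 0.0214 for FBtr0070490, 0.307 for FBtr0076262 and 0.3 for the others. The tally over settings therefore does not measure support across lines. *Fatp1* (FBtr0080133) and FBtr0081102 were past the threshold under 30, FBtr0082287 under 31 and FBtr0084782 under 26. These 13 female differences kept their sign under all 35 settings, which were not run for the other named transcripts. The 35 settings include scale and quantile normalization, which could hardly change the female values.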
